A study of Drosophila melanogaster with 18 samples.

Results

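*modulo* (*mod*) encodes the *Drosophila* homolog of Nucleolin, an abundant RNA-binding protein of the nucleolus, and males without it are sterile. Among 17575 genes counted in total RNA of adult testes, 59 were strongly lost in the *modulo* mutant, and these 59 genes are described here. A gene was taken when its lowest value in control was at least 6 times its highest value in the mutant and its control mean was at least 0.5 CPM, where CPM is the count of a gene in a replicate divided by the total count of that replicate and multiplied by 1000000. Long noncoding, antisense, small nucleolar, small nuclear and mitochondrial RNA genes were left out by their symbols, as were *mod* itself and *Syt12*, which left 11004 genes of this level that could have met the ratio, of which 0.536% did. The values of 99 genes of any symbol met the rule. Of the 40 left out by symbol, 34 were long noncoding and 4 antisense RNA genes, and the others were *mod* and *Syt12*. Because these values chose the 59 genes, their difference between genotypes is given as a description, without a test.

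The mutant carried modL8 over mod07570, and the control carried mod07570 over a wild-type chromosome (mod07570/+), although its label also calls it wild type. Both genotypes thus carried the mod07570 chromosome, and they differed in the other copy of chromosome 3, so an effect of the genotype at *mod* and an effect of other differences along that chromosome cannot be told apart. RNA came from whole testes of males aged 1 to 3 days, with 3 replicates per genotype, was depleted of ribosomal RNA, and was sequenced on 3 lanes per replicate, which were summed. The study's supplement counts the 3 replicates of each genotype as independent experiments, and p-values measure the spread between these samples. In whole testes, fewer cells of a type and less RNA per cell cannot be told apart.

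Testis RNA is dominated by germ cells passing from spermatogonia through spermatocytes to elongating spermatids, with somatic hub, cyst and sheath cells around them. Spermatocytes transcribe a large share of the genome, and many genes known from epidermis, sense organs or the nervous system are counted at low levels in this tissue. The lost genes are described by the roles of their products: cytoskeleton, secreted and surface proteins, cuticle, receptors, transcription factors, enzymes and transporters, and genes that are known only by an annotation number beginning with CG, to which no role is given here.

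The labels were first checked on *mod* (FBgn0002780, chromosome 3R from 32052060 to 32054974 on the plus strand of BDGP6/dm6). Its level was 2.02, 1.91 and 1.23 CPM in the *modulo* mutant replicates, against 22.6, 20.3 and 23.0 CPM in the control replicates, a log2 fold change of -3.62 (SE 0.18, adjusted p = 4.13e-05 by the edgeR quasi-likelihood test, Benjamini-Hochberg adjusted). Total counts were 90898270 to 107435749 in the mutant and 87119206 to 94915990 in control, so that 3 counts, taken as the floor for a library, correspond to 0.0279 to 0.0344 CPM. Of 14059 genes tested across the transcriptome, 32.3% were called: 17.8% as lower and 14.5% as higher in the mutant (adjusted p under 0.05), and 27.4% had every mutant replicate below every control replicate. With the replicate number as a block, the genes called higher numbered 3122 in place of 2044. The values of 99 of the tested genes (0.704%), of any symbol, met the rule. All 59 lost genes were tested, all were called lower and in all of them the genotypes did not overlap, which the rule fixes. The floor and intervals cover counting error only.

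Across the lost genes the mutant kept a median of 8.14% of the control mean, and the 56 genes above the floor in at least 1 mutant replicate kept 1.02% (*Map205*) to 15.0% (*Dop2R*), whereas the median of all 11004 genes that could have met the rule was 99.0%. The mutant kept under 5% of the control level for 16 genes, 5 to under 10% for 26, and 10% or more for 17. Most of the genes were low already in control. The control mean was 10 CPM or more for 9 genes, 1 to under 10 CPM for 39 and under 1 CPM for 11, with a median of 2.50 CPM, beside 20.6 CPM over the genes that could have met the rule. The summed level of the 59 genes was 39.2, 39.4 and 37.0 CPM in the mutant replicates, against 494.0, 483.7 and 471.5 CPM in the control replicates. Of these sums *tok* alone made up 19.0, 19.6 and 19.9 CPM in the mutant replicates, against 152.5, 160.8 and 146.6 CPM in the control replicates. The median of the control mean left over the 59 genes was 7.94%, 8.06% and 6.96% in mutant replicates 1, 2 and 3, and the rule, which limits the highest mutant value of each gene, limits all 3. Mutant replicate 3 was the lowest of the 3 for 31 genes and the highest for 14. The median coefficient of variation between replicates of a genotype was 23.3% in the mutant and 10.2% in control for the lost genes, beside 11.9% and 8.73% for all genes that could have met the rule. Counting error widens this spread at low counts, and the median mutant mean of the lost genes was 0.197 CPM. Its share in the spread was not separated.

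**Figure D1:**
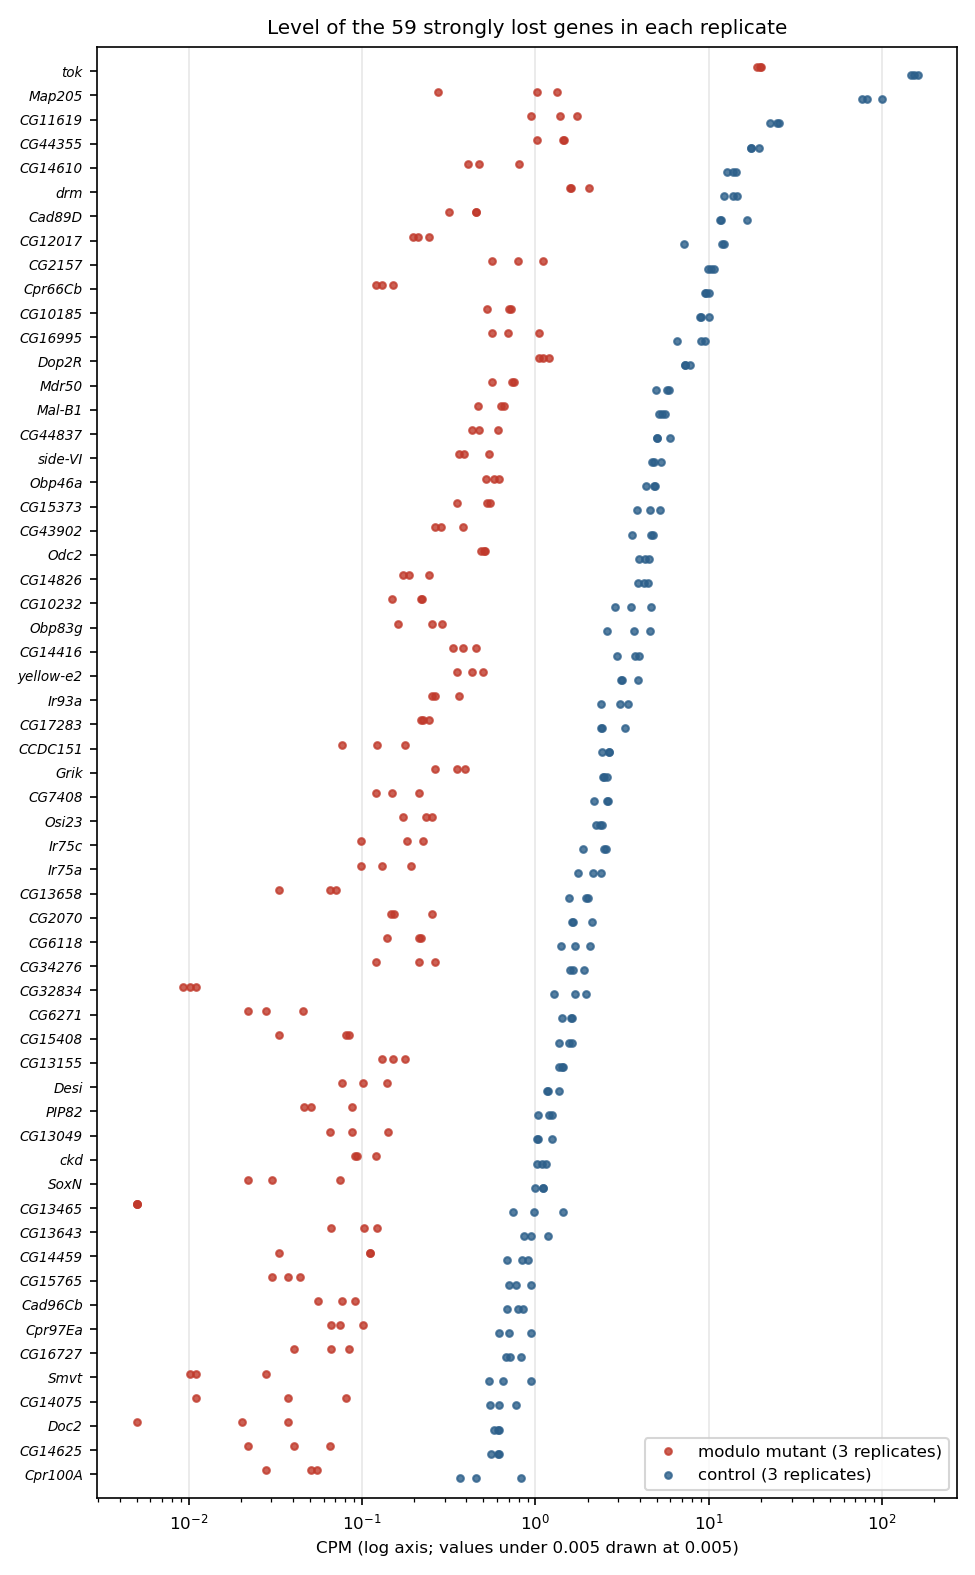
CPM (log axis) of each of the 59 strongly lost genes, ordered by control mean, in the 3 *modulo* mutant replicates (red) and the 3 control replicates (blue). Every mutant point lies left of every control point of its gene, as the rule requires; with mutant values raised to the floor of 3 counts, the lowest control value is 63.0 times the highest mutant value for *Cpr66Cb*, 57.6 for *Map205* and 39.0 for *CG32834*, and *tok* is the only gene above 3 CPM in the mutant.

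Relative to exon length, *tok* stood highest in control, at 28.3 CPM per kilobase of exon, followed by *CG14610* at 26.6, *CG44355* at 18.6 and *Map205* at 14.2. On the same scale the mutant held 3.61 CPM per kilobase for *tok*, 1.10 for *CG14610*, 1.34 for *CG44355* and 0.145 for *Map205*. *Map205* thus stood 4th of these 4 genes in both genotypes, with the widest drop.

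The microtubule-associated protein gene *Map205* was the most abundant gene to be almost emptied of counts. *Map205* protein binds microtubules and also the mitotic kinase Polo, which it can hold in an inactive form. The gene lies on chromosome 3R from 32055279 to 32068441 on the minus strand, 304 bases from *mod* on the opposite strand, so that the genes converge. *Map205* had 1.02, 1.34 and 0.275 CPM in the mutant replicates, against 99.2, 76.9 and 81.6 CPM in the control replicates. The mutant mean was 1.02% of the control mean, and mutant replicate 3, which also had the lowest *mod* level, stood well below the other mutant replicates. *CCDC151*, whose product is known in other animals to dock outer dynein arms on the axoneme of cilia and flagella, had 0.177, 0.121 and 0.0770 CPM in the mutant replicates, against 2.65, 2.64 and 2.43 CPM in the control replicates. It lies within *CG44837* on the opposite strand, and that gene was lost as well: *CG44837* had 0.605, 0.475 and 0.429 CPM in the mutant replicates, against 4.998, 5.05 and 5.96 CPM in the control replicates. The authors counted by strand, so reads of the 2 genes are separable in principle. Of 19 other tested genes on a list of microtubule-associated and Polo-related genes, 1 (5.26%) was called lower and 1 higher, beside 17.5% lower and 14.6% higher of all 14000 tested genes outside the 59. These were *tau* (log2 fold change -0.36, SE 0.09, adjusted p = 0.0269), a microtubule-associated protein, and *feo* (log2 fold change 0.23, SE 0.07, adjusted p = 0.0487), a midzone microtubule bundler. The kinase gene *polo*, the partner of *Map205*, had a mean of 19760 ± 4260 normalized counts in the mutant and 21280 ± 2290 in control (SD, n = 3 each; log2 fold change -0.11, SE 0.16, adjusted p = 0.657). None of 9 tested axonemal dynein heavy chain genes and none of 21 kinesin genes was called by edgeR or DESeq2 or had an unadjusted edgeR p under 0.05, whereas with the replicate block 3 of each list were called.

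The secreted metalloprotease gene *tok* (tolkin), a relative of tolloid and BMP1, was by far the most abundant of the lost genes. It lies on chromosome 3R from 24719697 to 24749125. *tok* had 19.0, 19.6 and 19.9 CPM in the mutant replicates, against 152.5, 160.8 and 146.6 CPM in the control replicates. All 3 mutant replicates lay within 1 CPM of each other, at 12.7% of the control mean, so that *tok* remained above the mutant level of any other lost gene. Its relative *tld* (tolloid), 605 bases away on the same strand and chosen after its values were seen, was far lower in both genotypes, with 10.1 ± 2.21 normalized counts in the mutant and 39.3 ± 5.79 in control (SD, n = 3 each; log2 fold change -1.95, SE 0.26, adjusted p = 0.0016).

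Genes of the cuticle and integument made up 6 of the lost genes. Cpr proteins carry a chitin-binding domain and build the insect exoskeleton together with chitin. *Cpr66Cb* had 0.130, 0.152 and 0.121 CPM in the mutant replicates, against 9.65, 9.56 and 10.1 CPM in the control replicates. The control replicates of *Cpr66Cb* differed little (coefficient of variation 2.78%), and the mutant kept 1.38% of their level. *Cpr97Ea* had 0.0745, 0.101 and 0.0660 CPM in the mutant replicates, against 0.616, 0.948 and 0.700 CPM in the control replicates. *Cpr100A*, the lost gene with the lowest control mean, had 0.0279, 0.0506 and 0.0550 CPM in the mutant replicates, against 0.451, 0.822 and 0.367 CPM in the control replicates. Control replicates of *Cpr100A* spread widely, with a coefficient of variation of 44.2%, the widest of the lost genes, but did not overlap the mutant. The other 3 lost genes of this group belong to the integument, namely *yellow-e2* of the yellow family, which includes cuticle pigmentation genes, *Osi23* of the Osiris family of cuticle-secreting cells, and *Desi* (Desiccate), which protects larvae from drying. Their mutant means were 8.55 to 12.6% of control. All 6 genes of this group lie on chromosome 3.

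Many relatives of the cuticle genes that did not meet the rule were called lower as well. Of 45 tested genes on the cuticle protein list outside the lost genes, 21 (46.7%) were called lower and 1 higher, and their median log2 fold change was -0.57. The median over all tested genes outside the 59 was 0.02, and among protein-coding genes of low level (a mean of 10 to 500 normalized counts) 26.0% were lower and 13.7% higher. *Cpr92A* had 91.5 ± 21.5 normalized counts in the mutant and 642 ± 63.8 in control (SD, n = 3 each; log2 fold change -2.81, SE 0.19, adjusted p = 0.000104). *TwdlP*, of the Tweedle family of cuticle proteins, had 103 ± 7.5 normalized counts in the mutant and 667 ± 88.7 in control (log2 fold change -2.70, SE 0.14, adjusted p = 4.12e-05). For *Cpr49Ac* the values were 50.3 ± 3.52 in the mutant and 208 ± 50.3 in control (log2 fold change -2.04, SE 0.21, adjusted p = 0.000592). With no filter on low counts it was 25 of 112 cuticle genes (22.3%), beside 14.7% of all genes. Without 1 replicate, 12 to 20 cuticle genes were called lower; it was 12 without control replicate 1 and 13 without mutant replicate 2 or control replicate 2. Among 15 tested Osiris genes, 9 were called lower and 2 higher (9 of 24 lower with no filter), with *Osi9* (log2 fold change -2.25, SE 0.17, adjusted p = 0.000142), *Osi13* (log2 fold change -2.16, SE 0.27, adjusted p = 0.00122) and *Osi20* (log2 fold change -1.94, SE 0.24, adjusted p = 0.00123) the strongest of those with at least 50 normalized counts.

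**Figure D2:**
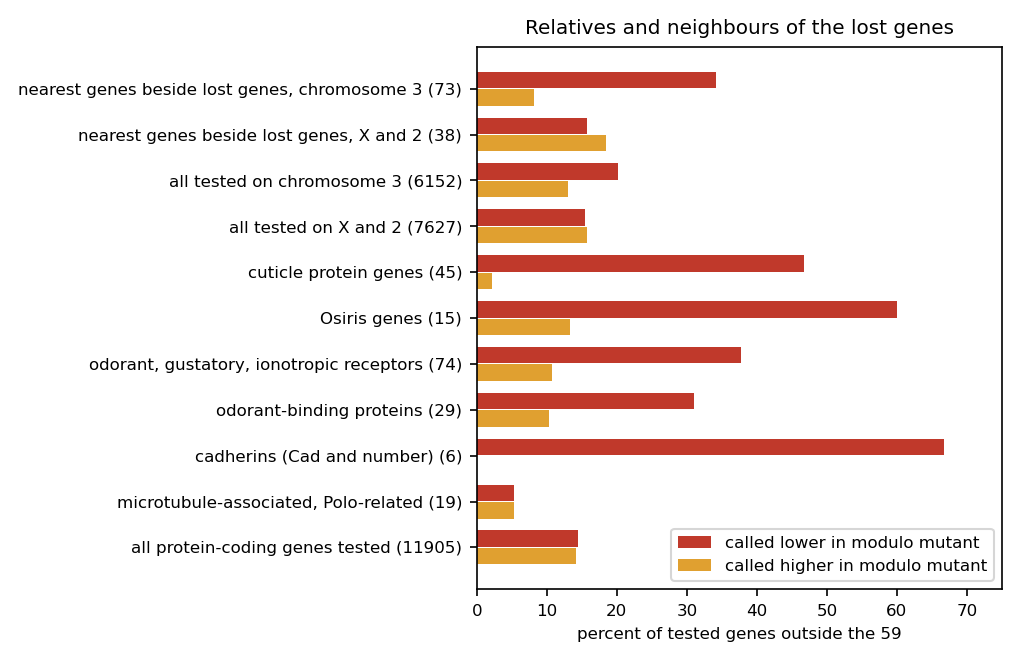
Percent of tested genes called lower (red) and higher (yellow) in the *modulo* mutant, among relatives and neighbours of the lost genes and, for comparison, among all tested genes on chromosome 3, on X and 2, and all protein-coding genes; the 59 genes are left out and the number of genes stands in brackets. Cuticle protein genes (46.7% lower) stand above all protein-coding genes (14.5%), and the microtubule list (5.26%) does not. Among protein-coding genes of low level, which are not drawn, 26.0% were lower. With no filter on low counts the cuticle share was 22.3%, beside 14.7% of all genes. Nearest genes on chromosome 3 (34.2%) stand above all tested genes there (20.1%), and include *mod* and *lncRNA:CR46028*, whose values met the rule.

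Of the surface proteins that hold cells together or guide them, 2 cadherins and 1 sidestep protein were lost. *Cad89D*, on chromosome 3R and the longest protein among the lost genes at 2240 residues, had 0.456, 0.455 and 0.319 CPM in the mutant replicates, against 11.8, 16.6 and 11.6 CPM in the control replicates. Control replicate 2 was the highest, and all mutant replicates were below 0.5 CPM, at 3.08% of the control mean. *Cad96Cb* was scarce in both genotypes, with a mean of 0.0746 CPM in the mutant and 0.775 CPM in control. *side-VI*, an immunoglobulin-type surface protein of the sidestep family, whose founding member guides motor axons, had 0.540, 0.364 and 0.385 CPM in the mutant replicates, against 5.31, 4.72 and 4.80 CPM in the control replicates. Of 6 further tested genes named Cad with a number, 4 were called lower and 0 higher, beside 17.5% lower of all tested genes outside the 59 and 26.0% of protein-coding genes of low level. *Cad96Ca* (log2 fold change -1.86, SE 0.18, adjusted p = 0.00051), *Cad74A* (log2 fold change -1.39, SE 0.08, adjusted p = 7.42e-05) and *Cad86C* (log2 fold change -1.12, SE 0.12, adjusted p = 0.000705) were among the 4, while *Cad87A* (log2 fold change -0.24, SE 0.12, adjusted p = 0.178) and *Cad99C* (log2 fold change 0.02, SE 0.15, adjusted p = 0.942) were not called. Without 1 replicate, 3 Cad genes were lower, or 5 when it was mutant replicate 1. Of the 7 other tested sidestep genes, looked up after values of some were seen, 3 were called lower, namely *side-III* (log2 fold change -1.49, SE 0.16, adjusted p = 0.000612), *side-VII* (log2 fold change -1.09, SE 0.17, adjusted p = 0.00314) and *side-VIII* (log2 fold change -0.67, SE 0.14, adjusted p = 0.0108). The other 4 were not called: *side* (log2 fold change -0.51, SE 0.19, adjusted p = 0.0845), *side-II* (log2 fold change -0.31, SE 0.12, adjusted p = 0.0851), *side-IV* (log2 fold change -0.29, SE 0.13, adjusted p = 0.13) and *side-V* (log2 fold change -0.09, SE 0.07, adjusted p = 0.345). Without mutant replicate 1, *side* and *side-IV* were called lower too.

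Receptors and odorant-binding proteins made up 7 of the lost genes. The ionotropic receptors are chemosensory and thermosensory relatives of ionotropic glutamate receptors; *Ir75a* and *Ir75c* belong to a cluster of acid-sensing olfactory receptors, and *Ir93a* is a co-receptor for temperature and humidity sensing. *Ir75a* had 0.130, 0.192 and 0.0990 CPM in the mutant replicates, against 2.40, 1.75 and 2.15 CPM in the control replicates. *Ir75c*, 2571 bases away on the same strand, had 0.223, 0.182 and 0.0990 CPM in the mutant replicates, against 2.54, 1.88 and 2.48 CPM in the control replicates. Control replicate 2 and mutant replicate 3 were the lowest of their genotype for both genes. Between them lies *Ir75b*, which missed the rule with a ratio of 5.70 and had 0.242, 0.212 and 0.0550 CPM in the mutant replicates, against 2.25, 1.38 and 2.14 CPM in the control replicates (log2 fold change -3.41, SE 0.44, adjusted p = 0.00147). All 3 genes of this cluster were thus lower in every mutant replicate, which the rule fixes for *Ir75a* and *Ir75c*. The next gene on one side, *Grd*, a GABA receptor relative, was near 0.1 CPM in both genotypes and its replicates overlapped. On the other side, *Cln3* had 1.927, 1.446 and 1.089 CPM in the mutant replicates, against 3.765, 1.844 and 4.89 CPM in the control replicates. *Cln3* was called lower (log2 fold change -1.165, SE 0.356, adjusted p = 0.0446), although its replicates overlapped.

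*Ir93a*, on chromosome 3R from 20851709 to 20859945, had 0.363, 0.263 and 0.253 CPM in the mutant replicates, against 3.07, 2.38 and 3.40 CPM in the control replicates. At 42010 bases from it lies *Grik*, a glutamate receptor of the kainate type, with 0.354, 0.394 and 0.264 CPM in the mutant replicates, against 2.48, 2.46 and 2.57 CPM in the control replicates. *Grik* had the tightest control replicates of the lost genes (coefficient of variation 2.47%). Between *Ir93a* and *Grik*, the kainate receptor gene *KaiR1D* had 0.549, 0.445 and 0.473 CPM in the mutant replicates, against 1.70, 1.39 and 1.70 CPM in the control replicates (log2 fold change -1.64, SE 0.16, adjusted p = 0.000512), and *Ktl* had 1.50, 1.28 and 1.20 CPM in the mutant replicates, against 4.47, 3.79 and 4.27 CPM in the control replicates (log2 fold change -1.60, SE 0.13, adjusted p = 0.000181). Both were chosen after their values were seen. Of the 7 tested genes between *Ir93a* and *Grik* outside the 59, 4 were called lower, *KaiR1D*, *Ktl* and a pair of long noncoding RNA genes, and 3 were not. Those 3 are the Turandot stress-response genes *TotA* (log2 fold change -0.48, SE 0.68, adjusted p = 0.625), *TotB* (log2 fold change -0.63, SE 0.49, adjusted p = 0.363) and *TotC* (log2 fold change 0.42, SE 1.18, adjusted p = 0.812), whose replicates overlapped between genotypes. Control replicate 3 was far above the other control replicates for *TotA* and *TotC*, and without it *TotC* was called higher, with a log2 fold change of 4.50. *RpS30*, a ribosomal protein gene on the other side of *Ir93a*, had 114.9 to 164.0 CPM in the mutant and 116.4 to 140.0 CPM in control, and these overlapped. On the other side of *Grik*, *hdly* had 22.47, 32.9 and 35.57 CPM in the mutant replicates, against 56.4, 42.03 and 46.65 CPM in the control replicates. It was called lower (log2 fold change -0.615, SE 0.186, adjusted p = 0.0429).

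The D2-like dopamine receptor gene *Dop2R*, on X, kept the most of its control level. *Dop2R* had 1.21, 1.04 and 1.10 CPM in the mutant replicates, against 7.74, 7.27 and 7.31 CPM in the control replicates. Its mutant replicates were tightly grouped, and its ratio of lowest control to highest mutant value, 6.03, lies just inside the rule. Of the other tested dopamine receptor genes, chosen as its relatives after values were seen, *Dop1R1* had 50.7 ± 12.3 normalized counts in the mutant and 146 ± 40.2 in control (SD, n = 3 each; log2 fold change -1.52, SE 0.27, adjusted p = 0.00597). *DopEcR* had 140 ± 19.1 in the mutant and 103.9 ± 18.5 in control and was not called (log2 fold change 0.44, SE 0.19, adjusted p = 0.124). Odorant-binding proteins are small soluble carriers secreted around sensory neurons and in other tissues. *Obp46a* had 0.577, 0.516 and 0.616 CPM in the mutant replicates, against 4.88, 4.36 and 4.83 CPM in the control replicates. *Obp83g* had 0.289, 0.162 and 0.253 CPM in the mutant replicates, against 3.72, 2.58 and 4.60 CPM in the control replicates. Replicates of *Obp46a* were close within each genotype, whereas those of *Obp83g* spread more, with control replicate 2 the lowest.

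Chemosensory genes outside the 59 moved in both directions. Of 74 tested odorant, gustatory and ionotropic receptor genes, 28 (37.8%) were called lower and 8 higher, and their median log2 fold change was -0.43. The background was 17.5% lower and 14.6% higher over all tested genes outside the 59, and 26.0% lower and 13.7% higher over protein-coding genes of low level. With no filter on low counts it was 33 of 175 (18.9%), beside 14.7% of all genes. Without 1 replicate, 15 to 30 were lower, with 15, 16 and 17 when control replicate 3, 1 or 2 was left out. Some rose strongly: *Or94a* had 140 ± 51.5 normalized counts in the mutant and 2.74 ± 0.61 in control (SD, n = 3 each; log2 fold change 5.62, SE 0.41, adjusted p = 0.000134), and *Gr43a*, a fructose receptor, had 458 ± 35.7 in the mutant and 72.7 ± 21.2 in control (log2 fold change 2.66, SE 0.21, adjusted p = 0.000197). Of 29 tested odorant-binding protein genes, 9 (31.0%) were called lower and 3 higher, with a median of -0.04, beside 26.0% lower among protein-coding genes of low level. *Obp56d* (log2 fold change -1.86, SE 0.21, adjusted p = 0.000814) and *Obp56a* (log2 fold change -1.27, SE 0.24, adjusted p = 0.00733) fell, and *Obp99c* (log2 fold change 1.22, SE 0.23, adjusted p = 0.0077) rose.

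**Figure D3:**
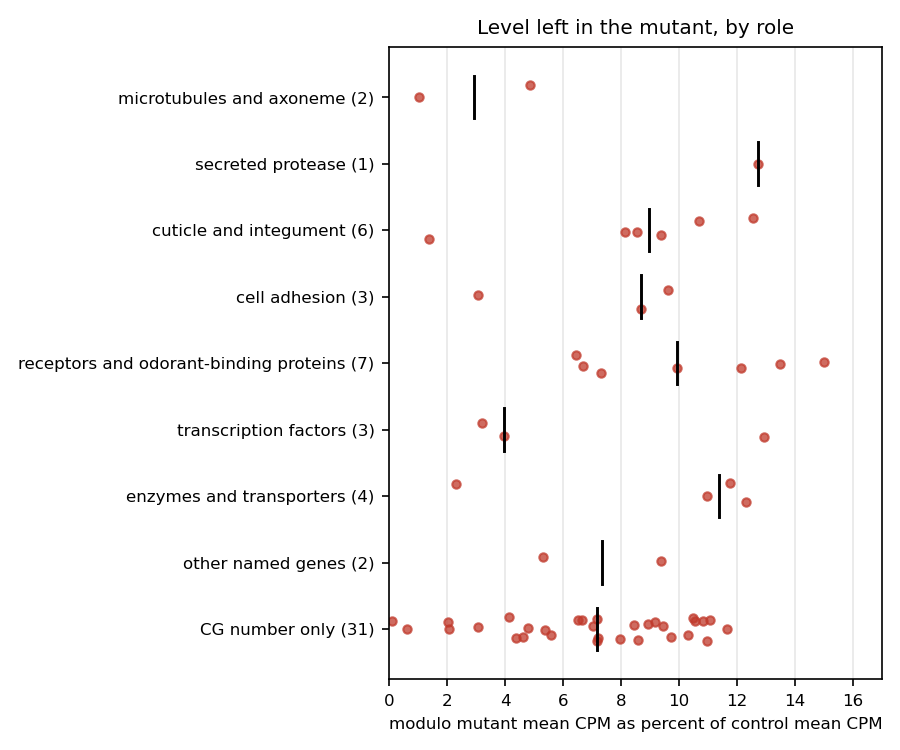
Mean CPM in the *modulo* mutant as a percent of the control mean for each of the 59 lost genes (points), grouped by role, with the group median (black line) and the number of genes in brackets; points are spread vertically for legibility. Medians run from 2.94% for the 2 microtubule and axoneme genes to 11.4% for the 4 enzymes and transporters, with the single secreted protease at 12.7%. The points of *CG13465*, *CG32834* and *Smvt* rest on mutant counts at or under the floor of 3 counts.

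Transcription factors were represented by *drm*, *SoxN* and *Doc2*. *drm* encodes a short zinc finger protein of the odd-skipped family, which patterns the embryonic gut and leg joints. It had 2.04, 1.61 and 1.58 CPM in the mutant replicates, against 14.5, 12.2 and 13.8 CPM in the control replicates, and its ratio of 6.01 is the smallest that met the rule. *SoxN*, a SoxB factor of the developing nervous system, had 0.0745, 0.0303 and 0.0220 CPM in the mutant replicates, against 1.11, 0.990 and 1.10 CPM in the control replicates. *Doc2*, a Dorsocross T-box factor of heart and dorsal ectoderm, had 0.0372, 0.0202 and 0.0 CPM in the mutant replicates, against 0.616, 0.580 and 0.608 CPM in the control replicates. For *SoxN* and *Doc2* the mutant values were within about 3 times the floor, and *Doc2* had no count in mutant replicate 3. Among relatives chosen after their values were seen, *bowl* of the odd-skipped family (log2 fold change -0.86, SE 0.08, adjusted p = 0.000434) and *D* (Dichaete), a SoxB factor (log2 fold change -1.36, SE 0.20, adjusted p = 0.00265), were called lower by less than the lost genes, and neither of the other 2 Dorsocross genes was called by edgeR or DESeq2 or had an unadjusted edgeR p under 0.05.

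Among enzymes and transporters, *Odc2*, an ornithine decarboxylase of polyamine synthesis, had 0.512, 0.485 and 0.506 CPM in the mutant replicates, against 4.29, 4.52 and 3.97 CPM in the control replicates. *Mal-B1*, a maltase, had 0.465, 0.637 and 0.660 CPM in the mutant replicates, against 5.13, 5.36 and 5.56 CPM in the control replicates. *Mdr50*, an ABC transporter that exports drugs and other compounds, had 0.735, 0.748 and 0.561 CPM in the mutant replicates, against 5.77, 4.96 and 5.88 CPM in the control replicates. These 3 genes lie on chromosome 2, and each kept 11.0 to 12.3% of its control level with close replicates. Of the related genes, looked up after values were seen, *Mdr49* (log2 fold change -0.09, SE 0.27, adjusted p = 0.828) and the maltase gene *Mal-B2* (log2 fold change -0.12, SE 0.18, adjusted p = 0.66) were not called. The transporter gene *Mdr65* was called lower (log2 fold change -0.82, SE 0.23, adjusted p = 0.0338), but not without mutant replicate 2 or 3 or control replicate 1 or 3, when its log2 fold change was -0.62 to -0.85. *Smvt*, which resembles the sodium-dependent multivitamin transporter of mammals, lies on chromosome 3R, 290480 bases from *mod*, and had 0.0279, 0.0101 and 0.0110 CPM in the mutant replicates, against 0.650, 0.938 and 0.540 CPM in the control replicates. Over all replicates *Smvt* had 5 counts in the mutant and 195 in control, a rate of 2.35% of control (95% exact interval 0.756 to 5.59%). The remaining named genes were *PIP82*, a protein of the photoreceptor membrane, with a mean of 0.0617 CPM in the mutant and 1.16 CPM in control, and *ckd*, with 0.102 CPM in the mutant and 1.08 CPM in control.

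Of the 59 lost genes, 31 are known only by a CG number. They kept at most 11.7% of control, with a median of 7.18%. The most abundant was *CG11619*, on chromosome 3L, with 1.73, 1.39 and 0.946 CPM in the mutant replicates, against 22.6, 25.4 and 24.9 CPM in the control replicates. *CG14075*, 270 bases from it on the opposite strand, was lost too, with 0.0372, 0.0809 and 0.0110 CPM in the mutant replicates, against 0.771, 0.548 and 0.620 CPM in the control replicates. These neighbours stood at very different levels in control and at 5.57% and 6.66% of it in the mutant. *CG44355*, annotated with a protein of 56 residues, had 1.44, 1.47 and 1.02 CPM in the mutant replicates, against 19.4, 17.6 and 17.6 CPM in the control replicates. *CG14610* had 0.475, 0.809 and 0.407 CPM in the mutant replicates, against 12.7, 13.9 and 14.4 CPM in the control replicates. Both lie on chromosome 3, and both had control replicates within 2 CPM of each other.

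*CG12017*, on chromosome 3L from 3280239 to 3290896, had 0.196, 0.243 and 0.209 CPM in the mutant replicates, against 12.2, 12.0 and 7.23 CPM in the control replicates. Control replicate 3 stood below the other control replicates but far above the mutant. The named gene *ckd* lies 12054 bases from it, and *CG12009*, 562 bases on the other side, missed the rule with a ratio of 4.72. *CG12009* had 2.50, 1.98 and 1.78 CPM in the mutant replicates, against 15.9, 13.6 and 11.8 CPM in the control replicates (log2 fold change -2.66, SE 0.17, adjusted p = 8.12e-05). It was thus lower in every mutant replicate, which the rule fixes for *ckd* and *CG12017*. The genes between *ckd* and *CG12017* had too few counts to be tested. On the far side of *ckd*, at 3373 bases, *lncRNA:CR43626* was not called (log2 fold change 0.17, SE 0.16, adjusted p = 0.462). *CG12009* was chosen after its values were seen.

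**Figure D4:**
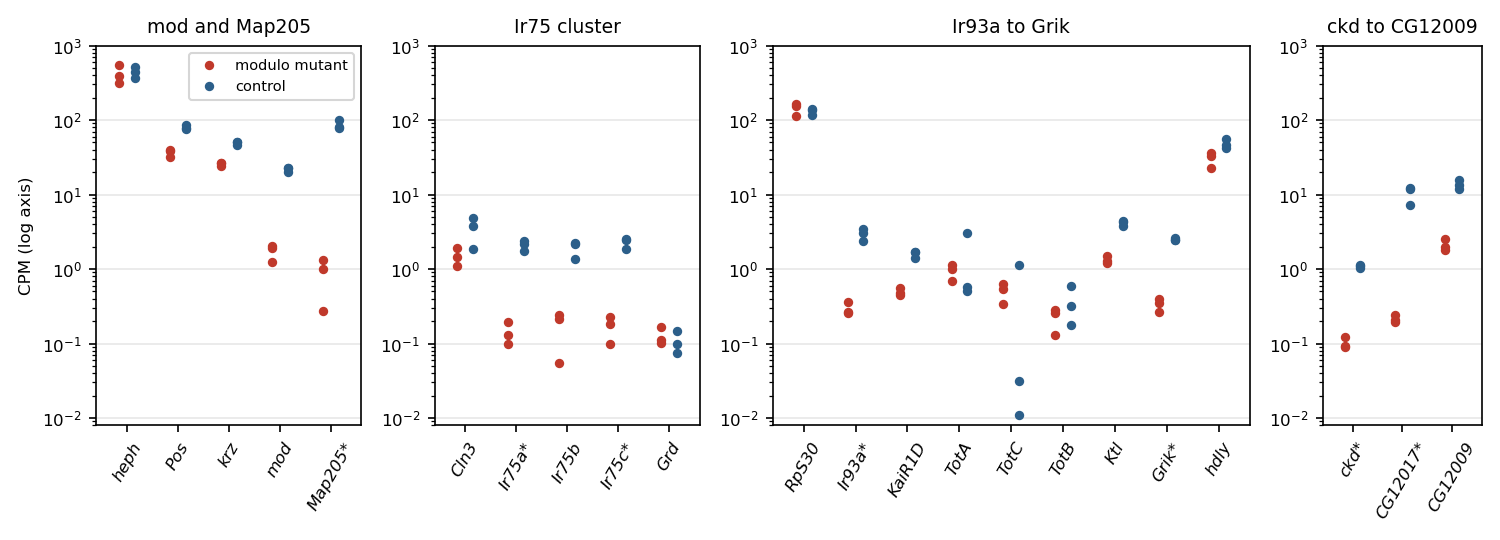
CPM (log axis) in the 3 *modulo* mutant replicates (red) and the 3 control replicates (blue) of genes in chromosomal order at 4 places that hold lost genes (marked with an asterisk). *Map205* falls beside *mod*, and *krz* and *Pos* lie lower in every mutant replicate, while *heph* overlaps between genotypes. The 3 Ir75 genes, *Ir93a*, *KaiR1D*, *Ktl*, *Grik* and *hdly*, and *ckd* to *CG12009* lie lower in every mutant replicate. The rule fixes this for the genes with an asterisk. *Cln3*, *Grd*, *RpS30* and the Turandot genes *TotA*, *TotC* and *TotB* between *KaiR1D* and *Ktl* overlap.

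On X, *CG2157* had 0.559, 0.789 and 1.11 CPM in the mutant replicates, against 9.83, 10.3 and 10.7 CPM in the control replicates. It was lowest in mutant replicate 1 and highest in mutant replicate 3, unlike *Map205*, and *CG16995*, on chromosome 2L, with 0.559, 0.698 and 1.05 CPM in the mutant replicates, against 6.56, 9.02 and 9.55 CPM in the control replicates, had the same order. The mutant replicates thus did not rank alike across the lost genes. *CG10185*, on 3R and overlapping *msps* on the opposite strand, had 0.726, 0.708 and 0.528 CPM in the mutant replicates, against 9.97, 8.93 and 9.05 CPM in the control replicates. *CG15373*, on X, had 0.549, 0.354 and 0.528 CPM in the mutant replicates, against 3.83, 4.55 and 5.26 CPM in the control replicates. *CG43902*, also on X, had 0.382, 0.263 and 0.286 CPM in the mutant replicates, against 4.63, 3.59 and 4.74 CPM in the control replicates. The genotypes were separated by at least 6.98 times for each of these 3 genes. *CG14826*, on 3L, had 0.242, 0.172 and 0.187 CPM in the mutant replicates, against 3.92, 4.44 and 4.21 CPM in the control replicates. *CG10232*, on 3R, had 0.149, 0.223 and 0.220 CPM in the mutant replicates, against 2.86, 4.64 and 3.54 CPM in the control replicates. *CG14416*, on X, had 0.382, 0.334 and 0.451 CPM in the mutant replicates, against 3.95, 2.94 and 3.73 CPM in the control replicates. *CG14416* kept 11.0% of its control level, against less for *CG14826* and *CG10232*, which kept 4.78% and 5.36%.

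A few CG genes were at or near the floor in the mutant. *CG32834*, on chromosome 2R, had 1 count in each mutant replicate, 3 in all, against 452 counts in the control replicates together, a rate of 0.609% of control (95% exact interval 0.125 to 1.79%). In CPM it had 0.00931, 0.0101 and 0.0110 CPM in the mutant replicates, against 1.29, 1.97 and 1.70 CPM in the control replicates. *CG13465*, on chromosome 3L, had 0.00307, 0.0 and 0.0 CPM in the mutant replicates, against 0.739, 1.45 and 0.985 CPM in the control replicates. Its mutant counts rounded to 0 in every replicate against 291 in control, so it was at least 34.8-fold lower in the mutant, taking the floor of 3 counts per library. Part of the *CG13465* counts were fractional, which means that read pairs also aligned elsewhere and were divided, so its level is uncertain. The same holds for *CG2070* in all 6 samples, and in 1 to 3 samples for *Dop2R*, *CG7408* and *CG6271*. *CG6271* had 0.0279, 0.0455 and 0.0220 CPM in the mutant replicates, against 1.43, 1.63 and 1.61 CPM in the control replicates. *CG13658* had 0.0652, 0.0708 and 0.0330 CPM in the mutant replicates, against 2.01, 1.57 and 1.96 CPM in the control replicates. *CG15408*, on 2L, had 0.0838, 0.0809 and 0.0330 CPM in the mutant replicates, against 1.55, 1.36 and 1.62 CPM in the control replicates. In these 3 genes mutant replicate 3 was the lowest. The 23 lost genes not given by replicate under the naming rule, 13 of them CG genes, ranged from 0.0 to 0.495 CPM in the mutant replicates and from 0.548 to 3.90 CPM in the control replicates and kept 3.18 to 13.5% of control. They were *CG17283*, *CG7408*, *CG2070*, *CG6118*, *CG34276*, *CG13155*, *CG13049*, *CG13643*, *CG14459*, *CG15765*, *CG16727*, *CG14075* and *CG14625* together with the named genes *yellow-e2*, *CCDC151*, *Grik*, *Osi23*, *Desi*, *PIP82*, *ckd*, *SoxN*, *Cad96Cb* and *Doc2*.

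What the rule did not use was the position of the genes. Of the 59 lost genes, 40 (67.8%) lie on chromosome 3, the chromosome that carries *mod* and that differs between the genotypes, with 16 on 3L and 24 on 3R. Of the 11004 genes that could have met the rule, 43.6% lie there. Chromosome 2 held 11 (18.6%, beside 38.9% of those genes) and X held 8 (13.6%, beside 16.1%), with 0 on chromosomes 4 and Y. The 40 genes left out by symbol had 65.0% on chromosome 3, *mod* among them. With the genotypes exchanged, 29 genes met the rule as strongly higher in the mutant, and 7 of them (24.1%) lie on chromosome 3. The share of strongly lost genes on chromosome 3 was 57.1% at a ratio of 2 (450 genes), 66.4% at 4 (107 genes) and 77.3% at 10 (22 genes). It was 62.7 to 68.3% when any replicate was left out. No test of the share was made, since genes are not independent samples.

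On chromosome 3 the lost genes were not gathered near *mod* alone. In windows of 5 Mb, 4 of 179 genes (2.23%) were lost in the window of 3R that holds *mod*, the largest share, and these were *Map205*, *Smvt*, *Cpr100A* and *Osi23*. The share was 0.319 to 1.24% in the 5 windows of 3L that held lost genes, and 0.377 to 1.30% in the other 5 windows of 3R that did. Within 1000000 bases of *mod* were *Map205* and *Smvt*. Next to *Smvt*, at 1724 bases, *CG2150* was called lower as well (log2 fold change -2.76, SE 0.26, adjusted p = 0.000429; chosen after its values were seen). On the far side of *mod* from *Map205*, *krz*, which encodes a nonvisual arrestin, had 26.8, 26.7 and 24.5 CPM in the mutant replicates, against 51.3, 46.9 and 51.3 CPM in the control replicates (log2 fold change -0.88, SE 0.07, adjusted p = 0.000227), and *Pos* had 38.9, 39.1 and 31.6 CPM in the mutant replicates, against 86.3, 75.3 and 79.3 CPM in the control replicates (log2 fold change -1.08, SE 0.10, adjusted p = 0.000371). Both, chosen after their values were seen, kept far more than *Map205*.

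**Figure D5:**
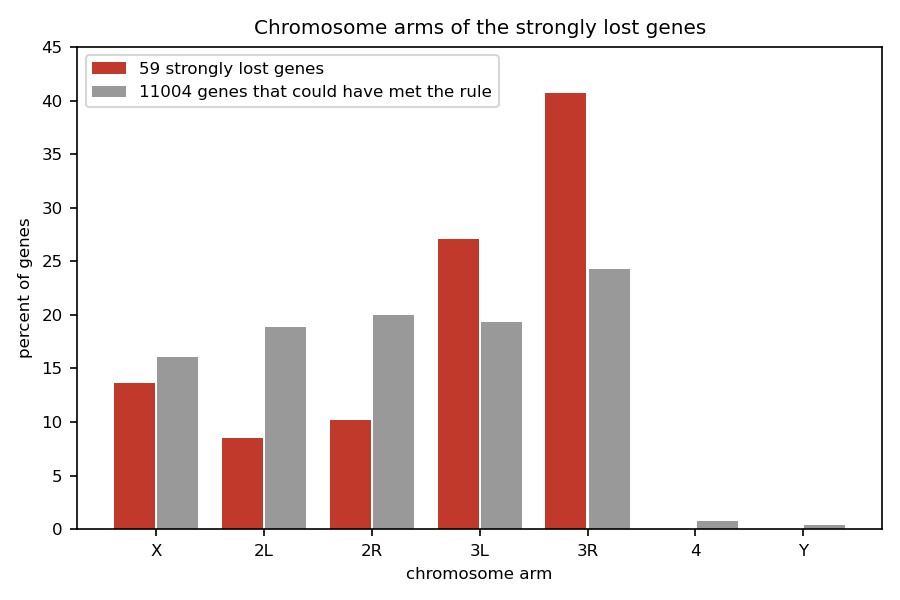
Percent of the 59 lost genes (red) and of the 11004 genes that could have met the rule (grey) on each chromosome arm. The lost genes exceed the other bar on 3L (27.1% beside 19.3%) and 3R (40.7% beside 24.3%) and fall below it on X and both arms of chromosome 2.

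Genes beside the lost genes were compared next. The nearest tested gene on each side of a lost gene gave 111 neighbours outside the 59, of which 31 (27.9%) were lower and 13 higher. Among the lower were *mod* and *lncRNA:CR46028*, both on chromosome 3, whose values met the rule and which were left out by symbol. On chromosome 3, 25 of 73 neighbours (34.2%) were lower, both of these included, beside 20.1% of all tested genes there. On X and chromosome 2 it was 6 of 38 (15.8%), beside 15.5%. Without 1 replicate, the chromosome 3 count was 16 to 26, with 16 when control replicate 1 or 3 was left out and a background of 13.8 to 25.0%. Over the 226 tested genes within 10000 bases of a lost gene, 59 (26.1%) were lower, *mod* and *lncRNA:CR46028* again among them, and 32 (14.2%) higher. The background for these 226 genes and for the 111 neighbours was 17.5% lower and 14.6% higher over all tested genes outside the 59. Among protein-coding genes of low level it was 26.0% lower and 13.7% higher. Besides *mod* and *Ir75b*, the neighbour with the strongest fall at 50 or more normalized counts was *lncRNA:CR46028*, 1441 bases from *CG34276*. It had 41.1 ± 5.59 normalized counts in the mutant and 331 ± 8.79 in control (SD, n = 3 each, log2 fold change -3.01, SE 0.15). Its values met the rule and it was left out only by its symbol, so this fall is a description without a test. *CG16775*, 2294 bases from *CG7408* (log2 fold change -2.71, SE 0.21, adjusted p = 0.000183), was chosen after its values were seen. Among the lost genes themselves, 8 lie within 20000 bases of another lost gene, in the 4 places described above, and 6 within 5000 bases. No background for these distances is given.

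In gene structure the lost genes resembled the others. All 59 are protein-coding, as are 98.7% of the genes that could have met the rule. Their median exonic length was 1864 bases (1903 over those genes), their median number of exons 4 (4), and the median of their longest proteins 509 residues (436). Single-exon genes made up 10.2% of the lost genes and 13.4% of the genes that could have met the rule. Of the lost genes, 22 overlap another annotated gene on either strand, a count given without the same share over the other genes.

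Markers of testis cell types and of other reproductive and body tissues were compared beside the loss, and no lost gene is on a marker list. For 10 late spermatid markers the summed level was 2304 to 2715 CPM in the mutant and 2562 to 2729 CPM in control, with 0 of 10 called by edgeR, 1 at an unadjusted p under 0.05 and 2 called by DESeq2. For 8 spermatocyte markers it was 567 to 725 CPM in the mutant and 626 to 730 CPM in control, with 0 of 8 called by edgeR, 1 at an unadjusted p under 0.05 and 1 called by DESeq2. Testis sheath muscle markers summed to 900.5 to 1362 CPM in the mutant and 1145 to 1483 CPM in control. The ranges of late spermatid, spermatocyte and muscle markers overlapped, but between samples of the same number the mutant sum was lower in 3 of 3 pairs for late spermatid and muscle markers, and in 2 of 3 for spermatocyte markers. For 6 spermatogonial and germline stem cell markers the sum was 299 to 414 CPM in the mutant and 305 to 372 CPM in control, with *aub*, a Piwi-family protein, called higher (log2 fold change 0.71, SE 0.13, adjusted p = 0.00549). Cyst cell markers summed to 194 to 319 CPM in the mutant and 231 to 325 CPM in control. Between samples of the same number this sum was lower in the mutant in 2 of 3 pairs. Of the 6 genes, 2 were called higher, the transcription factor gene *tj* (log2 fold change 0.46, SE 0.09, adjusted p = 0.0102) and the ligand gene *Wnt4* (log2 fold change 0.43, SE 0.11, adjusted p = 0.0228). The other 4 were not called, namely *eya* (log2 fold change -0.10), *zfh1* (-0.11), *chinmo* (-0.11) and *so* (0.13).

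The sum of hub markers was lower in every mutant replicate, at 83.6 to 92.6 CPM for 5 genes, against 121.7 to 137.0 CPM in control. Of the 5, *upd1*, whose replicates overlapped (log2 fold change -0.39, adjusted p = 0.144), and *Socs36E* (log2 fold change -0.22, adjusted p = 0.152) were not called. The called hub markers were *hh* (log2 fold change -0.89, SE 0.10, adjusted p = 0.000882), *CadN* (log2 fold change -0.59, SE 0.09, adjusted p = 0.00275) and *Fas3* (log2 fold change -0.33, SE 0.08, adjusted p = 0.0181), all of which other epithelial or neural cells also express. Neuron markers summed to 43.3 to 60.7 CPM in the mutant and 62.6 to 85.6 CPM in control, with *brp* (log2 fold change -2.22, SE 0.38, adjusted p = 0.00495) and *para* (log2 fold change -1.43, SE 0.25, adjusted p = 0.00596) lower of 6. The other 4 were not called, namely *elav* (log2 fold change 0.18), *nSyb* (-0.11), *Syx1A* (-0.17) and *Syt1* (-0.40). The summed level of ejaculatory duct and bulb markers was higher in every mutant replicate, at 46.5 to 70.9 CPM for 4 genes, against 18.3 to 27.8 CPM in control. Most of this sum was the esterase gene *Est-6*, called higher (log2 fold change 1.72, SE 0.24, adjusted p = 0.00208). *Ebp* was called lower (log2 fold change -2.33, SE 0.25, adjusted p = 0.000716). *Gld* was lower in every mutant replicate but not called (log2 fold change -0.38, adjusted p = 0.0558). *Dup99B* was not called either (log2 fold change 3.3, adjusted p = 0.0526), and *Peb-me*, *PebII* and *PebIII* of this list had no match. Midgut markers summed to 18.5 to 23.6 CPM in the mutant and 9.94 to 17.5 CPM in control, also without overlap. Most of this sum was the amylase genes *Amy-d* and *Amy-p*. Of 4 tested, *Amy-d* was called higher (log2 fold change 1.08, SE 0.24, adjusted p = 0.0131) and *lambdaTry* lower (log2 fold change -2.16, SE 0.24, adjusted p = 0.000768). *Amy-p* (log2 fold change 0.57) and *Mal-A1* (log2 fold change -1.04) were not called. Accessory gland markers ranged from 105 to 248 CPM in the mutant and from 43.3 to 408.5 CPM in control, and 1 of 13 tested was called higher. Fat body markers ranged from 106 to 141 CPM in the mutant and from 126 to 145 CPM in control. Of 7 tested, *Lsp1beta* (log2 fold change -1.38, adjusted p = 0.00101) and *Lsp1gamma* (log2 fold change -1.32, adjusted p = 0.00101) were called lower. *Yp3* was called higher (log2 fold change 1.22, adjusted p = 0.00733), and the other 4 were not called. Hemocyte markers ranged from 36.9 to 54.8 CPM in the mutant and from 42.4 to 56.1 CPM in control, with 0 of 6 tested called. No defining marker of these lists was at 0 in all samples. The part of these cell types in the loss was not tested.

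Around the thresholds, the 3 lost genes nearest to the ratio of 6 were *drm* (6.01), *Dop2R* (6.03) and *CG34276* (6.05), and the 3 genes just outside were *Lst* (5.99), *LManIII* (5.94) and *sha* (5.94). By level, *Cpr100A* (0.547 CPM), *CG14625* (0.593 CPM) and *Doc2* (0.601 CPM) were the lowest control means inside, and *Acsx1R* (0.499 CPM), *CG13071* (0.329 CPM) and *CG34278* (0.314 CPM) the highest outside among genes that met the ratio.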

How the data were processed

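Total RNA libraries depleted of ribosomal RNA were sequenced as read pairs for 3 *modulo* mutant and 3 control testis samples, each on 3 lanes. Per the labels and the study's methods, the authors aligned reads with STAR 2.7.1a to BDGP6/dm6 and counted pairs by strand on FlyBase genes with featureCounts, dividing pairs with several positions. What they deposited are estimated counts, without normalization. Lanes were summed and rounded for the tests, and not rounded for CPM. edgeR 4.0.16 (TMM, quasi-likelihood, Benjamini-Hochberg, R 4.3.3) tested the 14059 genes that reached 10 counts in 3 or more of the 6 samples. Normalized counts are on its TMM scale. It was tested on simulated data.

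The 59 genes, the gene lists and the roles were chosen with earlier results of these data known. Given by replicate were the 25 lost genes highest in control, the 10 with the largest ratio, those within 1000000 bases of *mod* and those on a list, plus some with well known roles. Other genes were named by size among called genes with at least 50 normalized counts, or as stated. Symbols (17512 of 17575), positions and gene structure were taken from RefSeq's gene table and the Ensembl BDGP6.54 annotation. Deviations of samples with numbers 1, 2 and 3 correlated at 0.541, 0.57 and 0.164 between genotypes. The last is close to the 0.119 of mutant replicate 1 with control replicate 3. The other samples of different number gave -0.571 to 0.0134. No label states a pairing, so pairing by number is uncertain. The main fit, from which calls and p-values are given unless stated, has no block. The replicate block, which takes the numbers as pairs, was run as an alternative. Alternatives were other scalings, filters, DESeq2 1.42.0, the block, single lanes and each replicate left out. Promoter sequence was not analysed here.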

Additional observations from a re-analysis of the deposited data

How the results depend on the processing

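The rule took 59 genes on CPM, 54 of them with TMM-scaled CPM, and 60 genes, all 59 among them, without ribosomal and mitochondrial genes. From single lanes it took 51, 51 and 53 genes, which held 45, 46 and 48 of the 59. It took 64 or 48 with a minimum control level of 0.25 or 1 CPM. A ratio of 4 took 107 and of 10 took 22, and exchanging the genotypes took 29. Leaving out 1 replicate gave 60 to 67 genes, among them all 59, or 58 without control replicate 2. The edgeR calls numbered 4547 (2503 lower, 2044 higher). Leaving out 1 replicate gave 2611 to 5895 calls, 1692 to 3104 lower and 919 to 2791 higher, each lowest without mutant replicate 2. DESeq2 called 5211. With the replicate block, which pairs the samples by number, 6409 genes were called, 3287 lower and 3122 higher. Under that block the lists of cuticle, receptor, odorant-binding, Osiris and cadherin genes and the chromosome 3 neighbours had 24, 28, 11, 9, 4 and 28 genes lower, in place of 21, 28, 9, 9, 4 and 25. The log2 fold change of polo ran from -0.289 to 0.0129 with 1 replicate left out, and was above 0 without mutant replicate 3. Signs also turned for genes that were not called: the log2 fold change of Cad99C was -0.0381 with total counts only and -0.125 to 0.101 with 1 replicate left out, the log2 fold change of Mdr49 -0.268 to 0.275, the log2 fold change of TotA -0.886 to 0.822 and the log2 fold change of TotC -0.157 to 4.50. The calls of tau, feo, Fas3, Mdr65, tj and Wnt4 were lost under at least 1 alternative, those of feo also with other scalings. The cause was not tested. With 3 counts as the floor, levels under 0.0279 to 0.0344 CPM are not resolved, which concerns CG13465, CG32834, Smvt, Doc2 and several other scarce genes in the mutant.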
